A study of Mus musculus with 12 samples.

Results

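The transforming growth factor beta (TGF-beta) and bone morphogenetic protein (BMP) signalling genes studied here are 45 named genes of the 48709 genes in the count tables. They were chosen by symbol for their place in the pathway, with earlier results of these data known, so the shares called among them are description. They comprise 7 ligands, 12 receptors and co-receptors, 8 Smads, 3 secreted antagonists and the pseudoreceptor Bambi, 4 latent TGF-beta binding proteins, 4 nuclear corepressors, 2 ubiquitin ligases and the 4 Id genes. All 45 were found in the tables and all 45 had enough counts to be tested.

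RNA was sequenced from primary hippocampal neurons of CD1 mouse embryos at E17, hippocampi of several embryos of a litter being pooled before plating. The cultures were treated at DIV10 (days in vitro) and harvested at DIV12, after 48 h. The 6 control libraries came from cultures given lipid nanoparticles with a negative control oligonucleotide, and the 6 mimic libraries from cultures given the same kind of nanoparticle with a miR-148a-3p mimic, a synthetic copy of this microRNA. ApoE4, a lipoprotein component that aids uptake of the particles, was added to both groups. The labels do not say whether the 6 samples of a group came from separate cultures, so the p-values measure the spread between these samples, which may be technical.

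Ligands of this family bind a complex of type II and type I serine/threonine kinase receptors, and the type I receptor then phosphorylates the receptor-regulated Smads. TGF-beta signals mainly through Smad2 and Smad3, and BMPs through Smad1, Smad5 and Smad9, all of which pair with Smad4 and enter the nucleus. The Id genes are classical direct targets of the BMP branch, and in the brain the pathway is known for its part in the formation of astrocytes from progenitors and in the response of glia to injury.

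A microRNA recognises transcripts mainly through its seed, bases 2 to 8, printed in capitals in the delivered strands. The mimic carries the mature sequence of mmu-miR-148a-3p, as RefSeq gives it for GRCm38.p6, where it lies at chr6:51269829-51269850 on the minus strand. The control sequence is the one in the reagent list of the study, and the values given for it assume that this oligonucleotide was the one used here.
mmu-miR-148a-3p: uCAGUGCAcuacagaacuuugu
negative control for mimic: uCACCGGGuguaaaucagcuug

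The longest annotated 3′ untranslated region (UTR) of each member was searched for the words TGCACTG (bases 2 to 8), GCACTGA (bases 2 to 7 followed by A) and their union TGCACTGA, on the transcript strand only. Of the 45 members, 13 held at least 1 site (28.9%), beside 3307 of the 15082 tested genes with an annotated 3′ UTR (21.9%). The UTRs of the members were longer than those of all tested genes, with a median of 1920 bases beside 1170. An 8-base site was found in 4 members, Tgfb2, Tgfbr1, Smad5 and Tgif2, and the share of all tested genes with such a site was 4.15%. These sites are shown first, and the sites of Tgfb3, Tgfbr2, Nog and Id1 follow because these are the 4 members with a site whose transcripts were lower in mimic. Capitals mark the match, the letters around it are UTR sequence of GRCm38 (GENCODE M21), and each line gives up to 30 bases. Tgfb2 lies at chr1:186623085-186623114 (minus strand), Tgfbr1 at chr4:47413971-47414000 (plus), Smad5 at chr13:56739635-56739664 (plus), Tgif2 at chr2:156855317-156855346 (plus), Tgfb3 at chr12:86057272-86057300 (minus), Tgfbr2 at chr9:116089695-116089723 (minus), Nog at chr11:89301141-89301169 (minus) and Id1 at chr2:152737009-152737037 (plus), in each case for the printed stretch.
Tgfb2: ctccttctgaaTGCACTGActgctatttta
Tgfbr1: atttcattccaTGCACTGAaggaatgattg
Smad5: gacagcaagtgTGCACTGAaccacagaggg
Tgif2: tccccccacagTGCACTGAgcaagggagga
Tgfb3: gaatcatatctTGCACTGcctggaattaa
Tgfbr2: gctccagtccaGCACTGAgtcccaggatc
Nog: ggttcctgtaaTGCACTGtttaactgtgt
Id1: gctgaggcggcGCACTGAgggaccagatg

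Library totals ranged from 20018234 to 37149112 counts and did not separate the groups (exact permutation p = 0.515, two-sided, n = 6 and 6). Control replicates 1 and 2 were the shallowest libraries, and they stood apart from the other control libraries in several members and over all tested genes. On the second principal component of the log2 CPM (22.7% of the variance) they were at 26.4 and 10.1, beside -11.2 to -2.07 in the other controls. Counts are therefore also given without them. The comparison asks which transcripts differ between cultures given the miR-148a-3p mimic and cultures given the control oligonucleotide. The level of the microRNA itself was not measured in these libraries. Groups were compared by edgeR (quasi-likelihood F-test), and a gene with a Benjamini-Hochberg adjusted p under 0.05 over all tested genes was called higher or lower in mimic. Levels are CPM, the counts of a gene per 1000000 counts of the TMM-scaled library total, and changes are log2 fold changes of mimic over control (log2 change) with their standard error (SE).

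Of the 45 members, which were chosen with earlier results of these data known, 21 changed, 11 of them higher and 10 lower in mimic. The share called was 46.7%, beside 22.2% of the 18847 tested genes, 11.5% being called higher and 10.7% lower. Well counted genes are called more often, and where the mean was 100 counts or more the shares were 18 of 35 members (51.4%) and 28.4% of all such genes. The median log2 fold change of the members was 0.035, beside -0.012 over all tested genes, and the median size of the change was 0.212 beside 0.119. The CPM of the 2 groups did not overlap in 15 members (33.3%), beside 13.3% of all tested genes. Without control replicates 1 and 2, an alternative chosen after seeing the data, 26 members were called (57.8%), and the share of all 19002 genes then tested rose as well, to 31.3%. In bulk samples such as these, fewer cells of a type and less RNA per cell cannot be told apart.

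**Figure D1:**
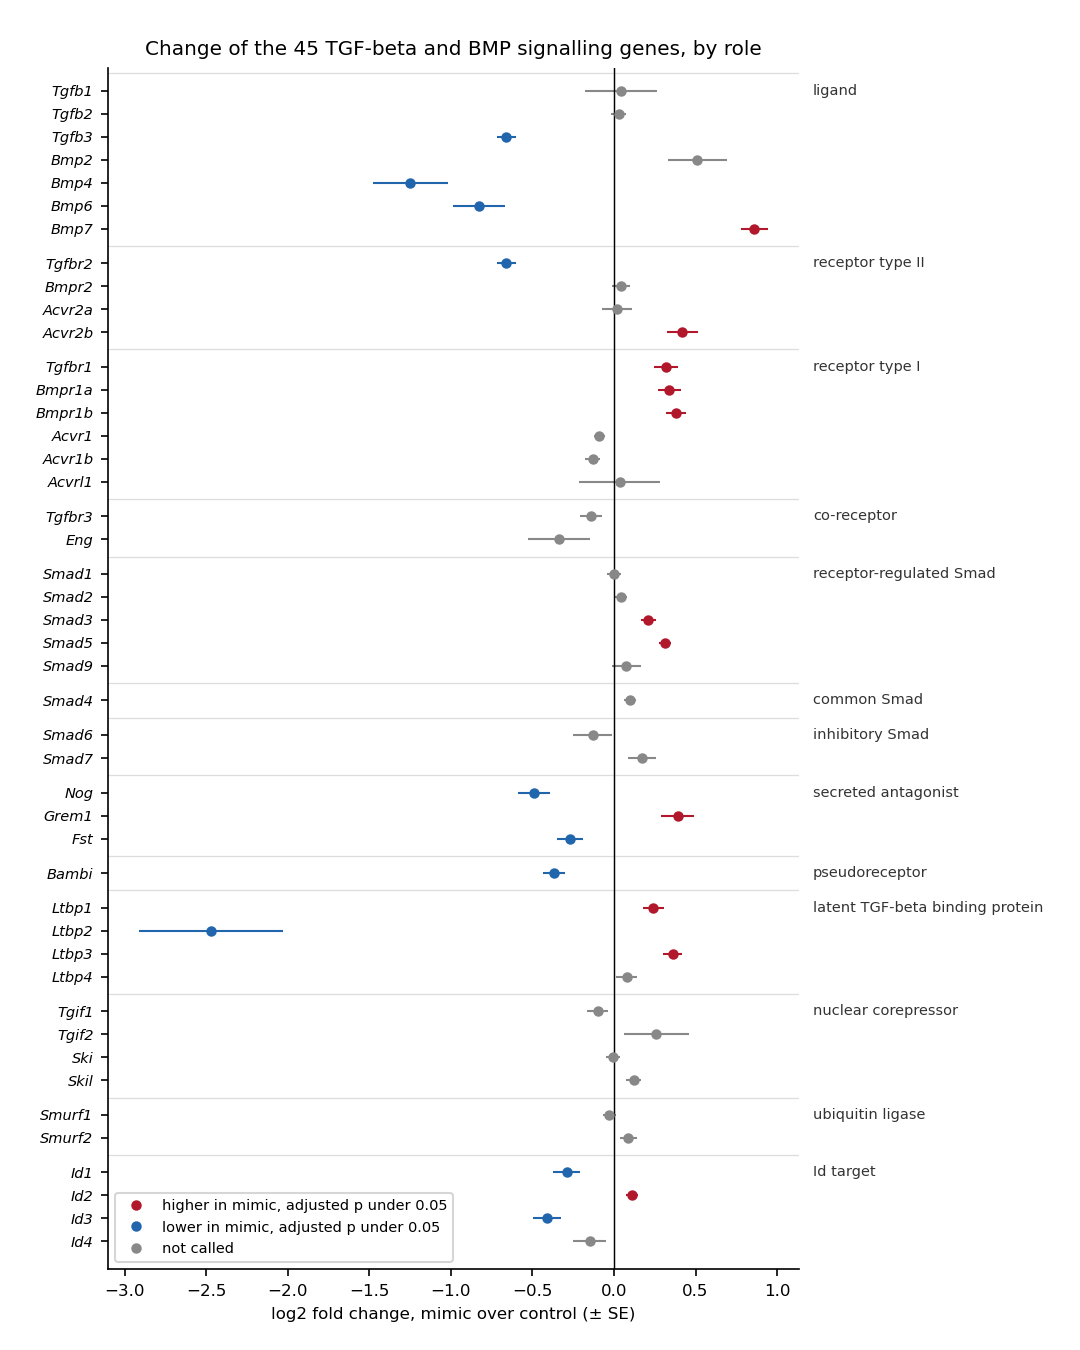
Log2 fold change of mimic over control (x axis) for each of the 45 members, grouped by role, with bars for the SE of the edgeR fit. Members called higher are red, those called lower blue and the rest grey; Bmp7 lies farthest to the right at 0.86 and Ltbp2 farthest to the left at -2.47.

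Among the 7 ligands, Bmp7 rose and Tgfb3, Bmp6 and Bmp4 fell, while Tgfb1, Tgfb2 and Bmp2 were not called. Bmp7, a BMP known for its part in the growth and patterning of the nervous system, lies at chr2:172868012-172940321 (ENSMUSG00000008999). Its levels in control replicates 1 to 6 were 17.3, 11.0, 15.2, 12.4, 13.5 and 13.1 CPM, and in mimic replicates 1 to 6 they were 27.9, 23.6, 23.6, 24.1, 24.9 and 25.8 CPM. Every mimic library was above every control library, the mean level was 1.82-fold higher in mimic, and the log2 fold change was 0.86 ± 0.083 (SE, edgeR adjusted p = 7.75e-07).

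Bmp6, a BMP that binds the same group of receptors, lies at chr13:38345107-38500302 (ENSMUSG00000039004). It measured 18.5, 29.6, 26.1, 25.5, 25.4 and 21.5 CPM in control replicates 1 to 6 and 9.33, 12.1, 14.0, 17.8, 19.0 and 10.4 CPM in mimic replicates 1 to 6. The groups overlapped only in that mimic replicate 5 lay above control replicate 1. The log2 fold change was -0.83 ± 0.16 (SE, edgeR adjusted p = 0.00203), a level 1.78-fold higher in control. Exons of Txndc5 on the opposite strand cover 5.7% of the Bmp6 exons, and Txndc5 had a mean of 4228.8 counts beside 570.2 for Bmp6. If strand was not used in counting, the Bmp6 counts over the shared bases may be too high or too low. The same holds for Acvr2a, with 7.8% of its exon length under Orc4 (1455.9 counts on average beside 2578.2), and for Eng, with 1.5% under Fpgs (395.1 beside 28.0).

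Bmp4, a BMP that favours astrocyte over neuron formation, lies at chr14:46383520-46390669 (ENSMUSG00000021835) and was rare, with a mean of 21.9 counts. Its control libraries held 0.757, 1.06, 0.754, 1.27, 1.19 and 1.22 CPM, and its mimic libraries 0.199, 0.549, 0.417, 0.594, 0.539 and 0.316 CPM. The groups did not overlap, and the log2 fold change was -1.25 ± 0.23 (SE, edgeR adjusted p = 0.000592).

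Tgfb3, the TGF-beta ligand that changed, lies at chr12:86056745-86079041 (ENSMUSG00000021253). It was at 15.2, 17.2, 15.4, 16.6, 15.6 and 15.6 CPM in the control replicates and at 8.84, 9.6, 9.91, 10.8, 11.3 and 10.2 CPM in the mimic replicates. The 2 groups were narrow and far apart, and the log2 fold change was -0.66 ± 0.06 (SE, edgeR adjusted p = 3.71e-07). Its 3′ UTR holds the 7-base site printed with the sequences.

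Tgfb2 had nearly the same range in both groups, 26.9 to 31.5 CPM in control and 27.5 to 31.3 CPM in mimic, with a log2 change of 0.03 ± 0.046 (SE, edgeR adjusted p = 0.72). Its UTR holds an 8-base site, and the effect of that site was not tested. Tgfb1 was near the detection limit, with 21.7 counts on average and a log2 change of 0.04 ± 0.22 (SE, edgeR adjusted p = 0.927). Its highest library was mimic replicate 2 with 1.26 CPM, and that library also had the highest summed level of 7 microglial markers, 18.7 CPM beside 7.55 to 11.5 CPM in the other mimic libraries; the part of microglia in this value was not tested. Bmp2, an inducer of Id genes, ranged from 0.489 to 1.01 CPM in control and from 0.742 to 1.16 CPM in mimic. Its log2 change of 0.51 ± 0.18 missed the threshold (SE, edgeR adjusted p = 0.0555), and it passed without control replicate 1 (edgeR adjusted p = 0.0118) or without mimic replicate 5 (edgeR adjusted p = 0.0423).

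Of the 4 type II receptors, Tgfbr2 fell and Acvr2b rose, a share called of 50.0% beside 22.2% of all tested genes. Tgfbr2, the type II receptor that binds the TGF-beta ligands, lies at chr9:116084293-116175360 (ENSMUSG00000032440). It measured 22.4, 22.6, 22.3, 23.3, 24.9 and 22.1 CPM in control and 14.1, 14.3, 15.4, 16.0, 14.8 and 12.3 CPM in mimic. Its log2 fold change, -0.66 ± 0.057 (SE, edgeR adjusted p = 2.26e-07), was as large as that of Tgfb3, and the groups were again far apart. Acvr2b, an activin receptor, ranged from 2.02 to 2.63 CPM in control (median 2.34) and from 2.62 to 3.38 CPM in mimic (median 3.1). The groups met at control replicate 1 and mimic replicate 3, and the log2 fold change was 0.42 ± 0.093 (SE, edgeR adjusted p = 0.00323). Bmpr2, the main type II receptor for BMPs, and Acvr2a, the other activin receptor, were much more abundant in CPM, at 175 to 227 and 63.0 to 97.8 CPM in control, and had log2 fold changes of 0.04 and 0.02 with edgeR adjusted p of 0.668 and 0.919. In both, control replicates 1 and 2 were the lowest of the 12 libraries, and without both the log2 fold changes were -0.04 for Bmpr2 and -0.11 for Acvr2a.

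Of the 6 type I receptors, 3 rose (50.0%) and none fell, beside 11.5% of all tested genes called higher and 10.7% called lower. Tgfbr1, the partner of Tgfbr2, ranged from 21.1 to 29.6 CPM in control (median 26.5) and from 30.9 to 35.2 CPM in mimic (median 31.4). Bmpr1a, a widely expressed BMP receptor, ranged from 72.8 to 103 CPM in control (median 97.0) and from 113 to 124 CPM in mimic (median 117). Bmpr1b, a BMP receptor of neural progenitors and glia, ranged from 19.9 to 24.3 CPM in control (median 20.8) and from 25.7 to 30.8 CPM in mimic (median 27.3). The groups did not overlap in any of these, and the log2 fold changes were 0.32 ± 0.074 (SE) for Tgfbr1, 0.34 ± 0.071 (SE) for Bmpr1a and 0.38 ± 0.061 (SE) for Bmpr1b, with edgeR adjusted p of 0.00439, 0.00189 and 0.000185. Control replicates 1 and 2 were the lowest libraries for Tgfbr1 and Bmpr1a, and without both of them the log2 fold changes were 0.22 and 0.24, beside 0.34 for Bmpr1b. Acvr1 and Acvr1b, receptors for BMPs and for activin, were at -0.09 and -0.13 on the log2 scale (edgeR adjusted p = 0.0826 and 0.0523), and Acvr1b was called lower by DESeq2 (adjusted p = 0.0459) and by edgeR without control replicate 4 or 6 or mimic replicate 5 (adjusted p = 0.0357 to 0.0491). Where only genes with a mean of 50 counts or more were tested, Acvr1 (edgeR adjusted p = 0.0372) and Acvr1b (0.0284) were both called lower. Without control replicates 1 and 2, Acvr1 was called lower (edgeR adjusted p = 0.0486), while Acvr1b was at -0.07 and not called (0.0738). Acvrl1, a receptor known from endothelial cells, had 17.0 counts on average and a log2 change of 0.04 ± 0.25 (SE).

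The co-receptors Tgfbr3 and Eng, which present ligand to the signalling receptors, were not called. Tgfbr3 was at 9.09 to 11.9 CPM in control and 9.24 to 11.1 CPM in mimic, with a log2 change of -0.14 ± 0.067 (SE, edgeR adjusted p = 0.172), and it was called lower without control replicate 1 (edgeR adjusted p = 0.0246). Eng, an endothelial co-receptor, had 28.0 counts on average and a log2 change of -0.34 ± 0.19 (SE, edgeR adjusted p = 0.239), and it was called lower without mimic replicate 4 (edgeR adjusted p = 0.0384).

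**Figure D2:**
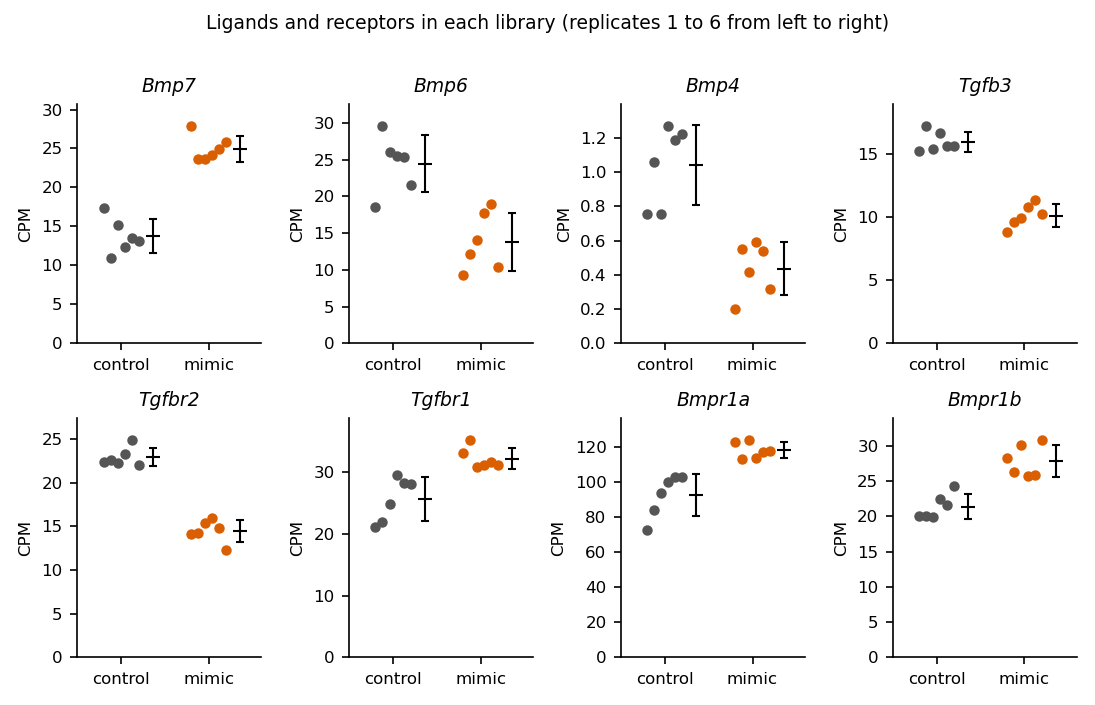
CPM (y axis, from 0) of 4 ligands and 4 receptors in each of the 6 control (grey) and 6 mimic (orange) libraries, with the mean and SD of each group in black. Bmp7 and the 3 type I receptors are higher in every mimic library than in any control library, Bmp4, Tgfb3 and Tgfbr2 are lower in every one, and Bmp6 overlaps between mimic replicate 5 and control replicate 1.

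Among the 8 Smads, 2 of the 5 receptor-regulated members rose and the other 6 Smads were not called, a share called of 25.0%, close to the 22.2% over all tested genes. Smad5, a BMP Smad, measured 74.4, 72.8, 81.0, 81.0, 81.2 and 83.3 CPM in control and 99.5, 98.4, 95.5, 95.9, 98.7 and 98.3 CPM in mimic. The mimic libraries lay close together and above all controls, and the log2 fold change was 0.31 ± 0.037 (SE, edgeR adjusted p = 1.08e-05). Smad5 holds 3 sites for the mimic, the most of any member. Smad3, a TGF-beta Smad, ranged from 21.1 to 23.7 CPM in control (median 22.7) and from 24.0 to 27.8 CPM in mimic (median 26.0), without overlap, and its log2 fold change was 0.21 ± 0.046 (SE, edgeR adjusted p = 0.00256).

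Smad1, Smad2 and Smad9 had log2 fold changes of 0.00, 0.04 and 0.07, with edgeR adjusted p of 0.999, 0.52 and 0.654. The change of Smad1 was the nearest to 0 of all members, with 25.6 to 28.3 CPM in control and 24.3 to 29.0 CPM in mimic. Smad4, the shared partner, was at 47.0 to 54.2 CPM in control and 52.7 to 55.3 CPM in mimic, a log2 change of 0.10 ± 0.038 (SE, edgeR adjusted p = 0.0716) that DESeq2 called (adjusted p = 0.0434), as did edgeR without control replicate 5 (adjusted p = 0.0304). Without control replicates 1 and 2, Smad4 was at 0.06 and not called (edgeR adjusted p = 0.149). The inhibitory Smads, which block receptor signalling and are themselves induced by it, were at -0.13 ± 0.12 (SE) for Smad6 and 0.17 ± 0.086 (SE) for Smad7 on the log2 scale, with edgeR adjusted p of 0.512 and 0.188. Smad7 was called higher without control replicate 1, its highest library at 7.17 CPM (log2 fold change 0.23, edgeR adjusted p = 0.0200).

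All 3 secreted antagonists and the pseudoreceptor changed, 3 of these 4 downwards, beside 22.2% of all tested genes called and 10.7% called lower. Nog encodes noggin, which binds BMPs and keeps them from their receptors, and it lies at chr11:89300638-89302332 (ENSMUSG00000048616). It was at 4.75, 3.78, 3.77, 3.99, 3.95 and 4.69 CPM in control and at 2.65, 2.81, 3.18, 3.38, 3.14 and 2.39 CPM in mimic. No mimic library reached the lowest control, and the log2 fold change was -0.49 ± 0.1 (SE, edgeR adjusted p = 0.00116).

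Bambi encodes a receptor-like protein without a kinase that dampens the signal. It ranged from 5.99 to 6.98 CPM in control (median 6.52) and from 4.6 to 5.43 CPM in mimic (median 5.01), without overlap, and its log2 fold change was -0.37 ± 0.067 (SE, edgeR adjusted p = 0.000624). Fst encodes follistatin, which binds activin, and ranged from 6.95 to 7.77 CPM in control (median 7.4) and from 5.03 to 7.34 CPM in mimic (median 6.28). Mimic replicate 2 lay within the control range, the log2 fold change was -0.27 ± 0.079 (SE, edgeR adjusted p = 0.0225), and the call was lost without mimic replicate 1 (adjusted p = 0.0568) and, at the threshold itself, without mimic replicate 6. Grem1 encodes gremlin, another BMP-binding antagonist, and moved the other way. It was at 2.21 to 3.18 CPM in control (median 2.74) and 3.2 to 4.26 CPM in mimic (median 3.51), groups that came close without overlapping, with a log2 change of 0.39 ± 0.1 (SE, edgeR adjusted p = 0.0108).

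The latent TGF-beta binding proteins tether the inactive ligand complex to the extracellular matrix, with the exception of Ltbp2, which does not bind latent TGF-beta. Ltbp2 had the largest change of the 45 members and also the widest spread. It lies at chr12:84783212-84876532 (ENSMUSG00000002020) and measured 3.48, 19.9, 7.87, 9.0, 8.05 and 15.2 CPM in control and 1.26, 1.36, 1.7, 1.85, 4.01 and 1.27 CPM in mimic. Mimic replicate 5 lay above control replicate 1, and all other mimic libraries were below all controls. The log2 fold change was -2.47 ± 0.44 (SE, edgeR adjusted p = 0.00158), a level 5.54-fold higher in control, and it ranged from -2.82 to -2.21 over the alternatives.

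Ltbp3, which assists secretion of latent TGF-beta, ranged from 34.6 to 42.6 CPM in control (median 38.2) and from 43.6 to 54.0 CPM in mimic (median 49.0), without overlap. Its log2 fold change was 0.36 ± 0.057 (SE, edgeR adjusted p = 0.000166). Ltbp1, the best known carrier of the latent complex, ranged from 7.31 to 8.99 CPM in control (median 8.0) and from 8.33 to 10.4 CPM in mimic (median 9.65), and its log2 fold change was 0.24 ± 0.065 (SE, edgeR adjusted p = 0.0112). The Ltbp1 groups overlapped through control replicate 1 and mimic replicate 3. Ltbp4 was not called, with a log2 change of 0.08 ± 0.065 (SE, edgeR adjusted p = 0.453), and without control replicates 1 and 2 it was called higher at 0.16 (edgeR adjusted p = 0.0331).

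None of the 6 intracellular repressors was called, beside 22.2% of all tested genes. Ski and Skil, which repress Smad target genes, had log2 fold changes of -0.01 and 0.12 (edgeR adjusted p = 0.937 and 0.0588), and Skil was called higher by DESeq2 (adjusted p = 0.0399) and by edgeR without control replicate 5 or 6 or mimic replicate 4 (adjusted p = 0.0228 to 0.0474). Without control replicates 1 and 2, Skil was at 0.07 and not called (edgeR adjusted p = 0.122). Tgif1 and Tgif2, homeobox corepressors, were at -0.10 ± 0.064 (SE) and 0.26 ± 0.2 (SE) on the log2 scale. The Tgif2 value is uncertain, since 56.7% of its exon length overlaps 5430405H02Rik on the opposite strand, which had 80.2 counts on average beside 31.3 for Tgif2. The ubiquitin ligases Smurf1 and Smurf2, which mark receptors and Smads for degradation, were at -0.03 ± 0.04 (SE) and 0.09 ± 0.053 (SE).

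The 4 Id genes, which encode inhibitors of basic helix-loop-helix factors and serve as readouts of BMP signalling, did not move together: Id3 and Id1 fell, Id2 rose slightly and Id4 was not called. Id3 (chr4:136143497-136145755, ENSMUSG00000007872) was at 37.3, 39.9, 33.5, 30.4, 31.7 and 30.2 CPM in control and at 22.3, 23.8, 24.5, 30.1, 28.6 and 23.3 CPM in mimic. The groups touched but did not overlap, with mimic replicate 4 at 30.1 just under control replicate 6 at 30.2. The log2 fold change was -0.41 ± 0.084 (SE, edgeR adjusted p = 0.00193), and -0.31 without control replicates 1 and 2, the highest libraries.

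Id1 (chr2:152736251-152737410, ENSMUSG00000042745) was at 8.33, 9.77, 8.51, 8.01, 8.32 and 7.91 CPM in control and at 6.59, 6.04, 7.65, 7.19, 8.02 and 5.94 CPM in mimic. Mimic replicate 5 lay inside the control range, and the log2 fold change was -0.29 ± 0.081 (SE, edgeR adjusted p = 0.0148). Id2 (chr12:25093799-25097140, ENSMUSG00000020644) was at 37.4, 37.9, 36.0, 38.6, 38.1 and 37.3 CPM in control and at 42.5, 39.3, 40.1, 41.8, 39.0 and 41.1 CPM in mimic. The Id2 groups were apart, but the change was small, with a log2 change of 0.11 ± 0.035 (SE, edgeR adjusted p = 0.0287), and the call was lost without control replicate 3 or 6 or mimic replicate 1, 4 or 6, with adjusted p between 0.0553 and 0.0788, with the replicate block (0.0764) and with no filter on low counts (0.0993). Id4 (chr13:48261228-48266026, ENSMUSG00000021379) was at 24.4, 29.7, 32.4, 35.4, 34.5 and 31.6 CPM in control and at 26.3, 29.1, 34.5, 29.8, 29.1 and 21.1 CPM in mimic. Its groups overlapped almost fully, and its log2 fold change was -0.15 ± 0.1 (SE, edgeR adjusted p = 0.343).

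**Figure D3:**
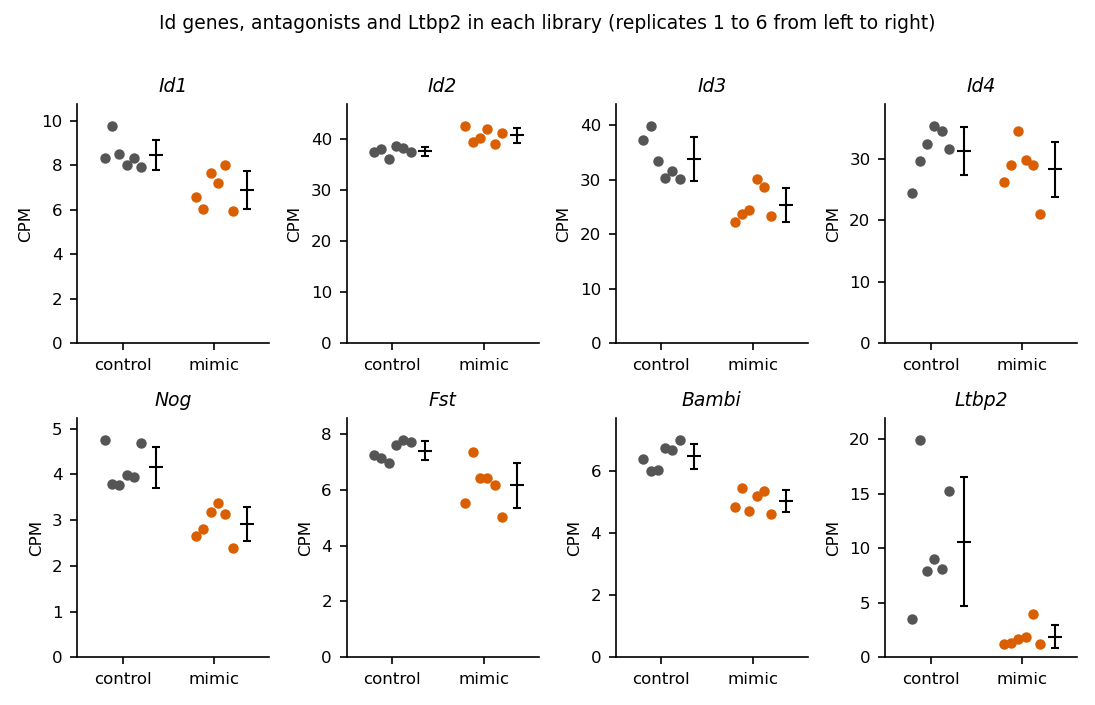
CPM (y axis, from 0) of the 4 Id genes, 3 antagonists and Ltbp2 in each control (grey) and mimic (orange) library, with the mean and SD of each group in black. Id3, Nog and Bambi are lower in every mimic library, Id4 overlaps, and the Ltbp2 controls spread from 3.48 to 19.9 CPM.

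Levels can be compared between genes only per length, so CPM were divided by the exon length in kilobases (RPKM). In control, Ski was the highest member at 38.5 ± 2.84 RPKM (SD, n = 6), followed by Acvr1b at 26.2 ± 1.96 and Id3 at 18.9 ± 2.2 RPKM. Id2, Acvr2a and Bmpr1a came next at 15.4, 14.9 and 14.6 RPKM and did not differ beyond their SDs of 0.362, 2.46 and 1.94. In all, 11 members were at 10 RPKM or more in control, most of them receptors and Smads. The ligands were lower, with Bmp6 the highest at 6.26 ± 0.995 RPKM, Tgfb2 and Tgfb3 at 5.05 ± 0.298 and 4.71 ± 0.232 RPKM, and Bmp7 at 3.43 ± 0.553 RPKM. Bmp2, Tgfb1 and Acvrl1 closed the order at 0.188, 0.141 and 0.136 RPKM. The order depends on the length used: per kilobase of the longest coding transcript, 11 members were again at 10 or more, but Id3 (26.5) stood level with Acvr1b (26.2), Acvr1, Smurf1 and Bmpr2 (18.6, 16.4 and 16.1) stood above Bmpr1a and Acvr2a (15.6 and 14.9), and Tgfb1 (0.328) was no longer among the 3 lowest.

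The order of the ligands was not the same in mimic, where Bmp7 led at 6.22 ± 0.416 RPKM (SD, n = 6) and Bmp6 stood at 3.53 ± 1.01 RPKM. The ratio of Bmp6 to Bmp7 per length ranged from 1.1 to 2.77 in the control libraries and from 0.344 to 0.787 in the mimic libraries, so Bmp6 was the higher of the pair in every control library and the lower in every mimic library. The ratio of the TGF-beta receptors, Tgfbr2 over Tgfbr1, ranged from 0.626 to 0.85 in control and from 0.316 to 0.409 in mimic. Id3 was above Id2 in every control library, with ratios of 1.07 to 1.43, and below it in every mimic library, with ratios of 0.713 to 0.999. With the longest coding transcript as the length, the Id3 to Id2 ratio was 1.21 to 1.62 in control and 0.808 to 1.13 in mimic, so that Id3 stayed above Id2 in mimic replicates 4 and 5, while Bmp6 over Bmp7 was 1.09 to 2.74 in control and 0.341 to 0.78 in mimic. These ratios restate the single-gene values and carry no test of their own.

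**Figure D4:**
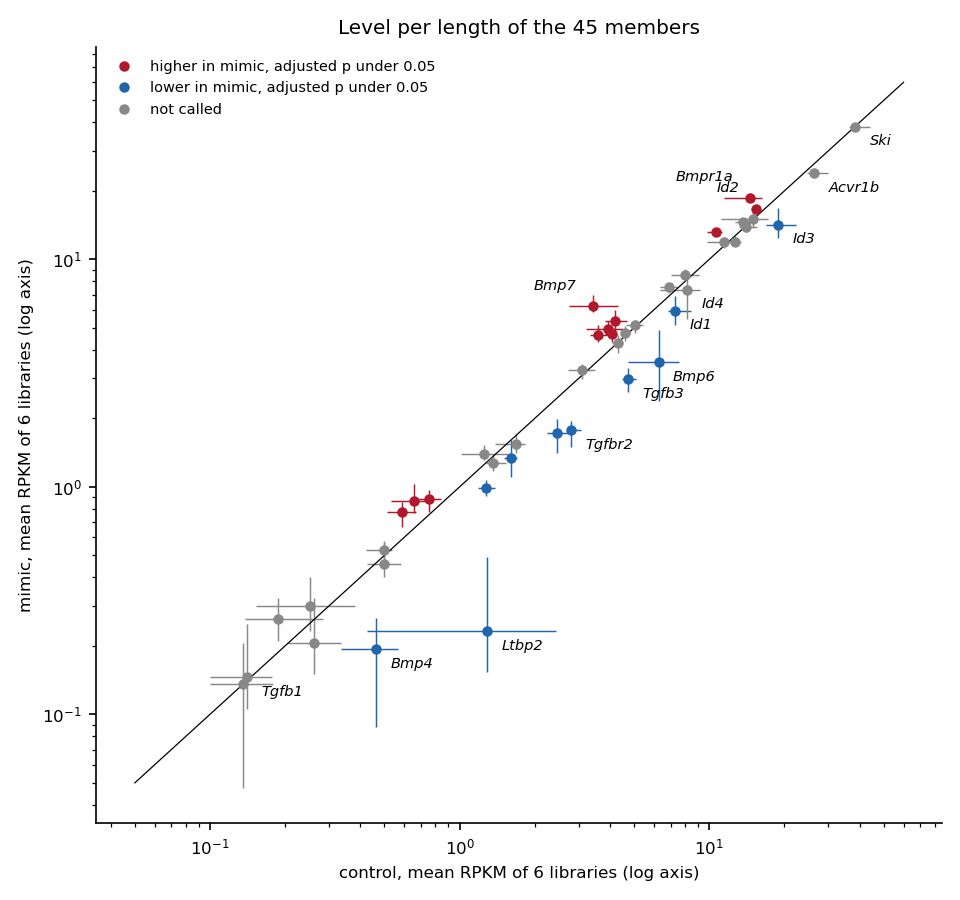
Mean RPKM of each member in control (x axis) and mimic (y axis), both on log axes, with bars from the lowest to the highest library and a line of equal level. Bmp7 lies above the line at 3.43 and 6.22 RPKM, while Bmp6, Tgfb3, Tgfbr2, Bmp4 and Ltbp2 lie below it.

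Of the 13 members with a seed site for the mimic, 3 rose, 4 fell and 6 were not called, with a median log2 fold change of 0.03. Over all 3307 tested genes with a site, 11.7% rose and 19.2% fell (30.9% called), with a median of -0.036. Of the 32 members without a site, 8 rose, 6 fell and 18 were not called, with a median of 0.04. Over all 11775 tested genes with a UTR and no site, 14.1% rose and 10.8% fell (24.9% called), with a median of 0.001. The 4 members with an 8-base site included 2 that rose, Tgfbr1 and Smad5, and none that fell, beside 8.31% that rose and 28.8% that fell (37.1% called) among the 626 tested genes with such a site. The difference between the members and all genes with a site was not tested. Sites for the seed of the negative control oligonucleotide were found in 2 members, Tgfb2 and Bmp6, beside 4.42% of all tested genes with a UTR.

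Beyond the 45 members, a list of 97 other pathway genes, also chosen with earlier results known, was read in the same fit, and 82 of them were tested. Of these, 13 rose and 9 fell, 26.8% in all beside 22.2% of all tested genes, with a median log2 fold change of 0.012. The largest increases among genes with at least 100 counts were those of Htra1, a secreted protease that antagonises TGF-beta (1.08 ± 0.072, SE), Emilin1, which holds back processing of the TGF-beta precursor (0.82 ± 0.13), the nodal receptor Acvr1c (0.72 ± 0.11), the BMP-binding Bmper (0.68 ± 0.055) and the Smad-binding repressor Zeb1 (0.49 ± 0.049), all log2 fold changes with edgeR adjusted p at or under 0.000216. The largest decreases were those of Thbs1, an activator of latent TGF-beta (-0.97 ± 0.16), Itgb8, a subunit of the integrin that activates it (-0.63 ± 0.1), Vasn, a TGF-beta trap (-0.37 ± 0.073), the BMP antagonist Chrdl1 (-0.34 ± 0.088) and the matrix protein Fbn1 (-0.28 ± 0.063), with edgeR adjusted p at or under 0.0101. By class, the calls were 3 of 16 further ligands, 2 of 6 further receptors, 5 of 18 extracellular regulators, 5 of 9 genes of the latent complex and its activation, 3 of 22 intracellular regulators and 4 of 11 Smad partners. Without control replicates 1 and 2, 35 of 83 other pathway genes were called (42.2%), beside 31.3% of all genes in that fit.

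A second list, likewise chosen with earlier results of these data known, held genes commonly read out for each branch. Of 18 TGF-beta responsive genes, all tested, 8 fell and 3 rose (61.1% called, beside 22.2% of all tested genes, of which 10.7% fell and 11.5% rose), with a median log2 fold change of -0.429. The collagen cross-linking enzyme Lox was at 5.76 to 17.0 CPM in control and 2.88 to 5.76 CPM in mimic (-1.57 ± 0.23, SE, edgeR adjusted p = 0.000259). Postn, Ccn2 and Cdkn2b, a matrix protein, a matricellular growth regulator and a CDK inhibitor, fell by 0.65, 0.57 and 0.56 on the log2 scale.

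The 3 that rose were Cdkn1a, another CDK inhibitor (log2 fold change 0.55 ± 0.038, SE), Klf10 (0.20 ± 0.059), a transcription factor induced by TGF-beta, and Nedd9 (0.11 ± 0.038), a scaffold protein. The Nedd9 call was lost in most of the fits that left out 1 library, at an edgeR adjusted p of 0.0562 to 0.103 (9 of 12 fits, the exceptions leaving out control replicate 1 or 4 or mimic replicate 1), with the replicate block (0.084) and with no filter on low counts (0.125). Of 14 BMP responsive genes 12 were tested, and 2 fell, 1 rose and 9 were not called, with a median of 0.016. The share called, 25.0%, was close to the 22.2% over all tested genes. The gene that rose was Hes1, a helix-loop-helix repressor also driven by Notch (0.51 ± 0.071, SE, edgeR adjusted p = 4.95e-05).

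**Figure D5:**
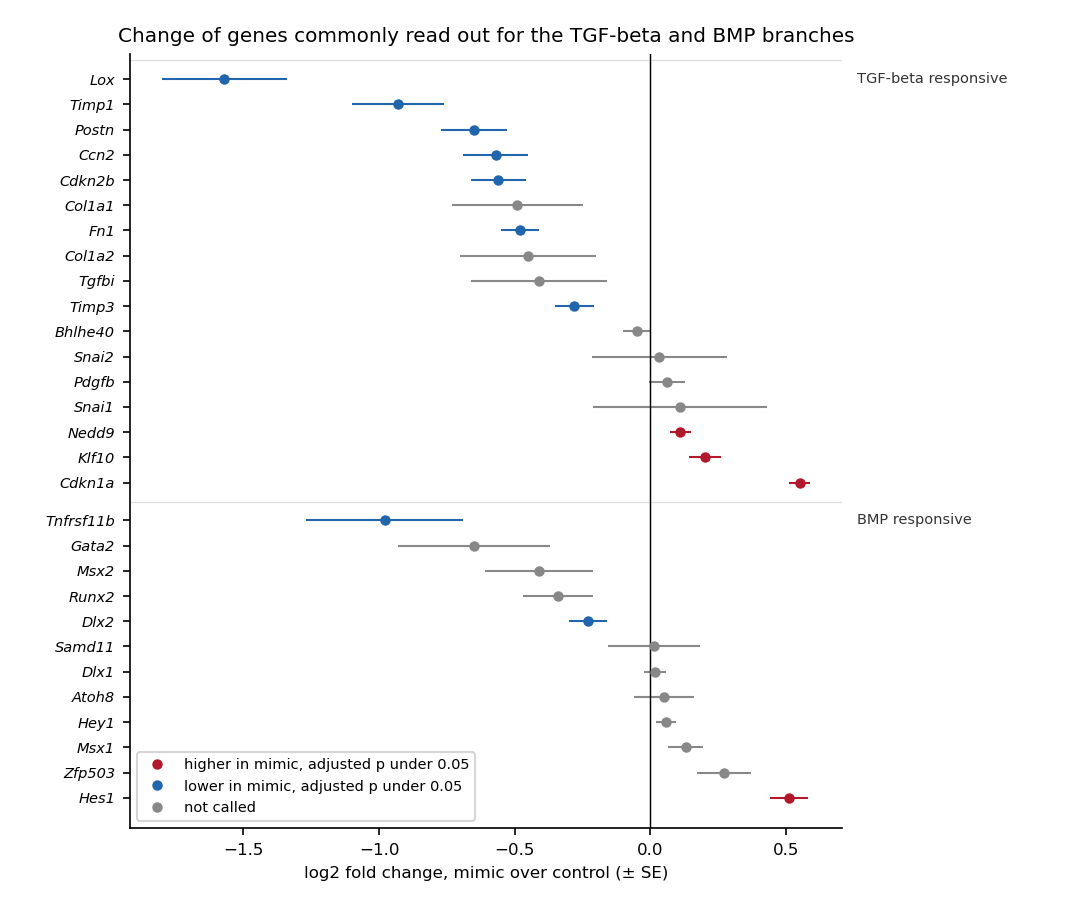
Log2 fold change of mimic over control (x axis, bars for the SE of the edgeR fit) for the TGF-beta and BMP responsive genes tested, 1 gene being left out, with genes called higher in red and lower in blue. Lox lies farthest to the left at -1.57, and Cdkn1a at 0.55 farthest to the right.

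Markers of several cell types moved with the groups. The 10 neuronal markers were all present and summed to 7530 to 8190 CPM in control and 8040 to 8350 CPM in mimic. Of these, Tubb3 and Neurod2 fell by 0.32 and 0.27 on the log2 scale, Camk2a rose by 0.18 and 7 were not called. The 5 interneuron markers summed to 283 to 318 CPM in control and 301 to 318 CPM in mimic, with Gad2 higher (0.14 ± 0.038, SE) and 4 not called. RNA of glial markers was present as well. Astrocyte markers rose in 7 of 10 cases, and their sum ranged from 5180 to 5690 CPM in control and from 6280 to 6710 CPM in mimic. The 1 that fell was Gfap, the intermediate filament of astrocytes, at 1250 to 1440 CPM in control and 622 to 839 CPM in mimic (log2 fold change -0.90 ± 0.078, SE, edgeR adjusted p = 5.52e-07). Oligodendrocyte lineage markers rose in 5 of 8 cases and fell in 1 (Mog, -0.36 ± 0.11, SE), with sums of 393 to 681 CPM in control and 768 to 963 CPM in mimic. All 5 markers of dividing cells rose, and their sum went from 151 to 188 CPM in control to 321 to 342 CPM in mimic.

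The 8 mesenchymal markers summed to 201 to 268 CPM in control and 98.1 to 226 CPM in mimic, with 2 of them lower: Acta2 at -2.86 ± 0.42 (SE) and Tagln at -1.74 ± 0.21 (SE) on the log2 scale, changes of the order of those of Ltbp2 and Lox. Collagen markers of the same list, Col1a1, Col1a2 and Col3a1, were not called. Ependymal and choroid plexus markers summed to 268 to 469 CPM in control and 225 to 403 CPM in mimic, with Foxj1 (-0.36 ± 0.073, SE) and Folr1 (-0.59 ± 0.14) lower, Kl higher at a mean of 9.75 counts (0.95 ± 0.33) and Ttr, which made up most of the sum, not called. The highest mimic sums were in replicates 4 and 5, at 305 and 403 CPM, and the lowest control sum was in replicate 1; the same libraries were the highest in mimic and the lowest in control for Bmp6. Endothelial markers summed to 46.6 to 68.7 CPM in control and 28.3 to 50.8 CPM in mimic, and 5 of the 6 had a mean under 20 counts. Nearly all of this sum was Kdr, which was lower in mimic (-0.64 ± 0.15, SE), as was Flt1 (-0.77 ± 0.26), while Pecam1, Cdh5 and Tek were not called and Cldn5 was too low to test. The 7 microglial markers summed to 8.41 to 10.7 CPM in control and 7.55 to 18.7 CPM in mimic, the lowest edgeR adjusted p among them being 0.0661, for Aif1. No marker was at 0 in all libraries, and the part of any of these cell types in the changes of the members was not tested.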

How the data were processed

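Poly(A) RNA libraries of 12 samples, 6 control and 6 mimic as labelled, were sequenced as 50 bp single-end reads. Per the submitters' processing notes, reads were checked with FastQC 0.11.5, aligned to mm10 with STAR 2.5.2b and counted with featureCounts of Subread 1.5.1. The values used are the raw counts per gene that the authors deposited; strand use in counting is not given in the sources used here. A second deposited table of normalized values was not used. Symbols, exon lengths and 3′ UTRs came from GENCODE M21 (GRCm38, the same build as mm10).

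The filter of the study, 5 counts or more in 50% of the libraries (6 of 12), was kept and the remaining genes were tested with edgeR 4.0.16 in R 4.3.3 (TMM, glmQLFit robust, quasi-likelihood F-test, no covariate, Benjamini-Hochberg adjustment over all 18847 tested genes). The SE is the size of the log2 fold change over the square root of F. DESeq2 1.42.0, the tool of the study, served as an alternative, beside median-ratio size factors, no filter, a mean of at least 50 counts, a replicate block, a test against a 1.2-fold change and leaving out each library. The scripts were tested on simulated data. Members called with a mean of at least 20 counts, and all Id genes, are given with their values in the libraries or their lowest, median and highest library; other members are given by range and change. Of the other 2 lists, at most 5 called genes per direction with a mean of at least 100 counts are named, except 1 gene that is not reported here; the choice of the cell type markers to name was made with their values in view. The members and lists were chosen with earlier results of these data known.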

Additional observations from a re-analysis of the deposited data

Results flagged for a closer look

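Among 128 sets of 6 libraries, each the CPM of 1 gene in 1 group, 14 had a highest or lowest library whose gap to the nearest other library took more of the whole range than Dixon's critical value at the 95% level for 6 samples allows. Chance flags about 1 in 20 such sets, 6.4 here. Control replicate 1 was the library that stood apart in 6 of the 14, and control replicate 2 in 2.

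Of the members, Tgfb1 stood at 1.26 CPM in mimic replicate 2, beside 0.536 to 0.728 CPM in the other mimic libraries. Ltbp2 was at 4.01 CPM in mimic replicate 5, beside 1.26 to 1.85 CPM. In control replicate 1, Acvr1b was at 132 CPM beside 109 to 117 CPM, Ski at 244 CPM beside 202 to 216 CPM and Tgfbr3 at 9.09 CPM beside 10.9 to 11.9 CPM. Id1 was at 9.77 CPM in control replicate 2, beside 7.91 to 8.51 CPM.

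Of the other named genes, Htra1 was at 55.2 CPM, Chrdl1 at 14.4 CPM and Ccn2 at 16.5 CPM in control replicate 1, and Zeb1 was at 88.6 CPM in control replicate 2. In mimic, Bmper was at 11.5 CPM in replicate 6, Itgb8 at 68.6 CPM in replicate 3, Nedd9 at 36.4 CPM in replicate 1 and Postn at 16.5 CPM in replicate 4. None of these libraries was left out of the values in the report, and the reasons for the gaps were not tested.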

How the results depend on the processing

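Across 19 alternatives, 6 of the 21 called members (Tgfb3, Bmp4, Bmp6, Bmp7, Tgfbr2 and Ltbp2) kept their call and direction wherever they were tested, which was all of them except that Bmp4 was too low for the filter on a mean of at least 50 counts. The other 15 lost it in at least 1, all of them in the test against a 1.2-fold change, which called 1035 genes in all, 6 members (1 higher, 5 lower), 8 other pathway genes and 9 responsive genes. Of the 24 members not called, 9 were called in at least 1 alternative. Leaving out each library in turn gave 19 to 24 called members and 3494 to 5150 genes in all, in place of 4182, and DESeq2 called 24 and 4411. Leaving out control replicates 1 and 2, chosen after seeing the data, gave 26 members, 5950 genes in all and 35 other pathway genes in place of 22. Counting 8-base sites alone left 4 members with a site in place of 13.

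Replicate numbers did not pair the samples: the correlations of same-numbered deviations ran from -0.107 to 0.227, and no sample correlated best with its own number. With the replicate as a block, 20 members and 3659 genes were called; Id2 lost its call (edgeR adjusted p = 0.0764), as it did with no filter on low counts (0.0993).

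Directions turned only in members not called. Without control replicates 1 and 2, the log2 fold changes were -0.0166 for Tgfb2, -0.0425 for Bmpr2, -0.109 for Acvr2a, 0.0468 for Ski and 0.015 for Smurf1. With the block they were -0.0281 for Acvrl1 and -0.00137 for Smad1, which was at -0.00487 with a mean of at least 50 counts. Leaving out 1 library gave -0.178 to 0.124 for Tgfb1, -0.000404 to 0.0692 for Bmpr2, -0.0509 to 0.0635 for Acvr2a, -0.112 to 0.208 for Acvrl1, -0.0211 to 0.0277 for Smad1, -0.0242 to 0.0335 for Ski and -0.0494 to 0.000814 for Smurf1. The cause of these turns was not tested. Low counts limit Bmp4, Bmp2, Tgfb1, Acvrl1, Eng and Tgif2.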
